A study of Mus musculus with 6 samples.

Results

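Mast cells are granulated cells of the dermis that line vessels and nerves. The genes described here are 10 mast cell genes, chosen by name: the chymase genes Mcpt4 and Cma1, the tryptase genes Tpsb2 and Tpsab1, the carboxypeptidase gene Cpa3, the receptor genes Kit, Fcer1a and Ms4a2, the histamine enzyme gene Hdc, and Mcpt8, a relative of the chymase genes that basophils express. Probes of the array could be matched to 20130 genes, among them 9 of the 10, with 10 probes. Expression was measured on 1-colour Agilent arrays in day 3 skin wounds of male mice labelled C57/BL6, 3 of them wild type (WT) and 3 FoxO1 +/-, which carry 1 disrupted copy of the forkhead factor gene Foxo1. How that copy was disrupted, and the age of the animals, are not given in the sources used here. Each mouse received 4 full-thickness wounds with a 4 mm punch on shaved back skin, and a 6 mm punch removed each wound with its margin, so an array holds granulation tissue, epidermis and the skin around the wound. The titles number the animals within a genotype, whereas the design text leaves unclear whether wounds were pooled, so a p-value here speaks only to the spread among the arrays, part of which may be technical.

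As background, connective tissue mast cells of the mouse store chymases, tryptases, carboxypeptidase A3 and histamine on a proteoglycan core, and release them when antigen crosslinks IgE on the high-affinity receptor. That receptor holds an alpha chain (Fcer1a), which binds IgE, a beta chain (Ms4a2) and the gamma chain that other immune receptors share. Survival of the cells depends on stem cell factor and its receptor tyrosine kinase Kit, and the GATA factors bind regulatory DNA of several granule genes.

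The 250 bases before the transcription start are shown for Mcpt4, Cma1, Cpa3, Fcer1a and Hdc. The sequences are from RefSeq, build GRCm38.p6, and capitals mark each match to any of 4 GATA words on either strand, namely AGATAA and TGATAA, or AGATAG and TGATAG.
Mcpt4, chr14:56062311-56062560, minus strand: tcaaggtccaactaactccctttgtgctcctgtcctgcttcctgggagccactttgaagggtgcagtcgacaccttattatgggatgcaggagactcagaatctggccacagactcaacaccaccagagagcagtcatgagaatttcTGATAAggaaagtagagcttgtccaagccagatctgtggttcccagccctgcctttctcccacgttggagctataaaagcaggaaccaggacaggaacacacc
Cma1, chr14:55944676-55944925, minus strand: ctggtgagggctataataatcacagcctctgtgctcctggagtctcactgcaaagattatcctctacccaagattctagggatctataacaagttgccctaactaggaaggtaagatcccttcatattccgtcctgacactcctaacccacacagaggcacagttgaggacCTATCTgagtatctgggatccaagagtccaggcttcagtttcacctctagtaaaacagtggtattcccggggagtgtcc
Cpa3, chr3:20242182-20242431, minus strand: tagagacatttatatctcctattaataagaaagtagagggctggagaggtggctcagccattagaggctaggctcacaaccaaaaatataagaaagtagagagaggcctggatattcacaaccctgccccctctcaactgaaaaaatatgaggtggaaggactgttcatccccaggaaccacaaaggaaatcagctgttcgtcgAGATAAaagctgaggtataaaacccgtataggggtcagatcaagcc
Fcer1a, chr1:173227230-173227479, minus strand: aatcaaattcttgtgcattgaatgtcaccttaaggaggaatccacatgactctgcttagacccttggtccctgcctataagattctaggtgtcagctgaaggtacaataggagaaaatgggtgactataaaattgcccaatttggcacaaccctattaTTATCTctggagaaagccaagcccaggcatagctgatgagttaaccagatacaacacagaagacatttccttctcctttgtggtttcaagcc
Hdc, chr2:126618679-126618928, minus strand: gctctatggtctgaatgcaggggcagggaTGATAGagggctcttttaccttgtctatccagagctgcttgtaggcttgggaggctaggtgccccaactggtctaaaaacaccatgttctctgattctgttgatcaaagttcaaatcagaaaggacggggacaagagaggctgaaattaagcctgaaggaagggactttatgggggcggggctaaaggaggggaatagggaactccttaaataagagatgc

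Of the 8 members with a promoter entry, 6 held such a word in these 250 bases, beside 26.5% of all 32851 promoter windows of that length. In Cpa3 the word AGATAA began 46 bases before the start and in Mcpt4 TGATAA began 103 bases before it. Cma1 and Fcer1a held theirs on the opposite strand, 79 and 92 bases before the start, counted to the first base in reading order. Hdc held TGATAG farther away, at 221 bases, and Ms4a2 held AGATAA at 3 places. Kit and Mcpt8 held none of these letters in the window. A match of 6 letters describes the sequence and does not show that a factor binds there. Any link between these words and the levels on the arrays was not tested.

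Array quality was even except for FoxO1 +/- replicate 3, on which 64.3% of spots were well above background against 70.1% to 71.9% on the other 5 arrays. Foxo1 itself did not overlap between genotypes on either of its probes, with log2 levels of 2.06 ± 0.26 (SD, n = 3) in WT against 1.58 ± 0.10 (SD, n = 3) in FoxO1 +/- wounds on the brighter and 1.29 ± 0.23 (SD, n = 3) against 0.39 ± 0.10 (SD, n = 3) on the dimmer probe. Neither passed limma's adjustment over the kept probes (adjusted p 0.547 and 0.190), and the sources used here do not place the probes inside or outside the disrupted stretch, so they are no firm check of the labels. The WT arrays and FoxO1 +/- replicate 1 lay in slide row 1 and the other FoxO1 +/- arrays in row 2. Levels are log2 processed signals minus the 75th percentile of their own array. Probes differ in brightness for reasons other than abundance, so the level of a gene is compared between arrays and never with that of another gene.

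None of the measured mast cell genes differed between genotypes beyond the spread of the arrays. Of the 10 genes, 8 were measured, and 7 of those were well above background on all 6 arrays, namely both chymase genes, Tpsb2, Cpa3, Kit, Fcer1a and Hdc. In limma, 0 of the 8 passed an adjusted p of 0.05 and 0 passed an unadjusted p of 0.05, beside 0.00609% and 6.25% of the 16408 genes tested. The genotypes overlapped for all 8 measured genes, whereas 11.5% of all genes had no overlap. The mean was higher in FoxO1 +/- wounds for 5 of the 8 and lower for 3, beside 53.7% higher over all genes, and the median log2 difference was 0.17 beside 0.01 over all genes. In tissue RNA, a change in the number of mast cells and a change in RNA per mast cell could not be told apart.

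**Figure D1:**
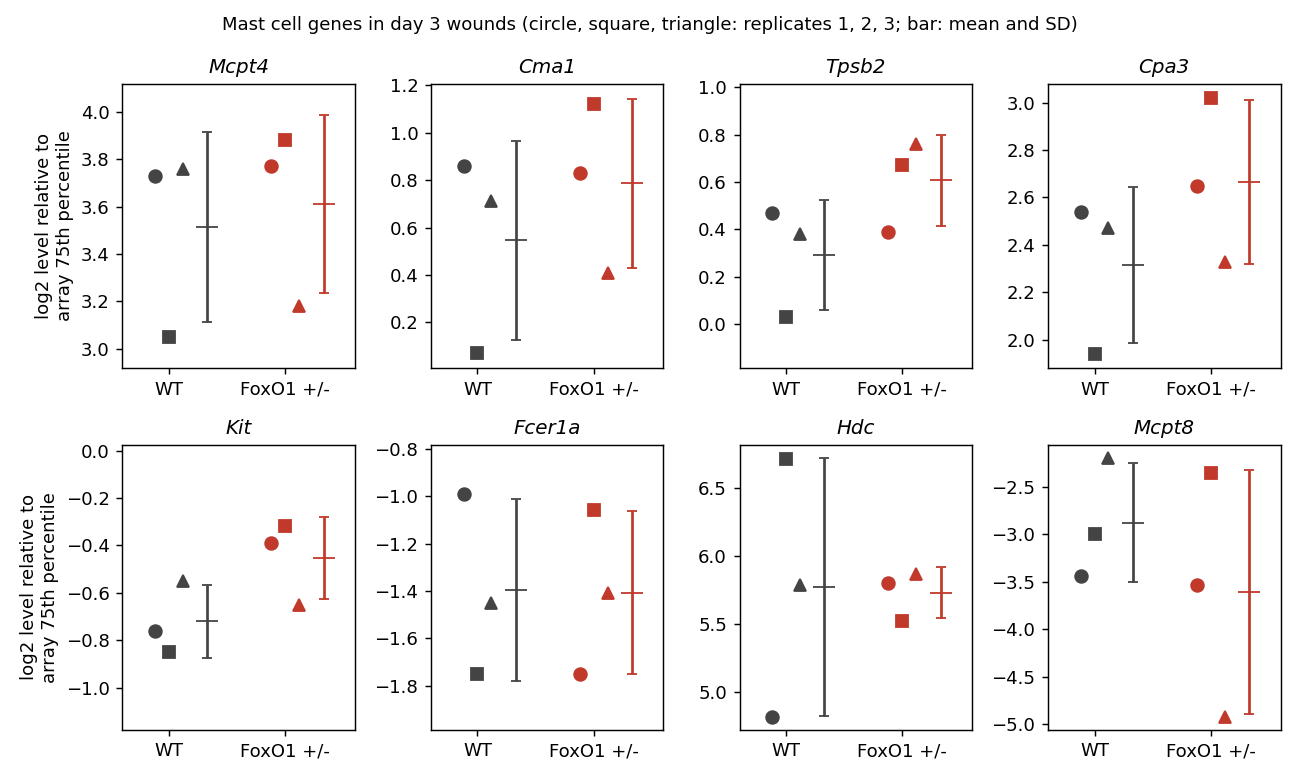
Log2 level relative to the array's 75th percentile (vertical axis, a separate range for each gene spanning at least 1.2 units) of the 8 measured mast cell genes in WT (grey) and FoxO1 +/- (red) wounds. Circles, squares and triangles are replicates 1, 2 and 3, and bars are the mean and SD of 3 arrays. WT replicate 2 is the lowest WT array in 6 of the 8 panels, and the genotypes overlap in every panel.

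Among the granule proteases, Mcpt4 encodes a chymase of connective tissue mast cells that cleaves matrix and clotting proteins. Its levels were 3.73, 3.05 and 3.76 on WT replicates 1, 2 and 3 and 3.77, 3.88 and 3.18 on FoxO1 +/- replicates 1, 2 and 3. WT replicate 2 and FoxO1 +/- replicate 3 were thus low and the other 4 arrays lay close together, so each genotype held a low array. The spread within a genotype reached 1.64-fold in WT and 1.63-fold in FoxO1 +/- wounds, whereas the genotype means differed by 0.09 (SE 0.27, 95% interval -0.55 to 0.74, limma adjusted p 0.995). Without WT replicate 2 the difference had the opposite sign (-0.14), as it had without FoxO1 +/- replicate 2 (-0.04).

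Cma1 encodes the other chymase, known as mast cell protease 5, which is stored together with carboxypeptidase A3. It measured 0.86, 0.07 and 0.71 in WT and 0.83, 1.12 and 0.41 in FoxO1 +/- wounds, with the same arrays low as for Mcpt4. The log2 difference of 0.24 (SE 0.26, 95% interval -0.40 to 0.89, limma adjusted p 0.960) was smaller than the range of 0.80 over the WT arrays. It varied with single arrays, from 9.0e-04 without WT replicate 2 and 0.08 without FoxO1 +/- replicate 2 to 0.40 without WT replicate 1 and 0.43 without FoxO1 +/- replicate 3.

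Cpa3 encodes carboxypeptidase A3, which trims peptides at their C-terminal end and degrades venom toxins and vasoactive peptides. Levels were 2.54, 1.94 and 2.47 in WT and 2.65, 3.02 and 2.33 in FoxO1 +/- wounds. Again WT replicate 2 was lowest, FoxO1 +/- replicate 3 next and FoxO1 +/- replicate 2 highest. The difference of 0.35 was the largest positive difference among the members, 1.28 times the WT level (SE 0.23, 95% interval -0.21 to 0.91, limma adjusted p 0.898), and it was 0.16 without WT replicate 2 and 0.18 without FoxO1 +/- replicate 2.

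Tpsb2 encodes the tryptase known as mast cell protease 6, a tetrameric enzyme held together by heparin. Its brighter probe gave 0.47, 0.03 and 0.38 in WT and 0.39, 0.67 and 0.76 in FoxO1 +/- wounds. Here FoxO1 +/- replicate 3 was the highest array, unlike in the chymases and Cpa3. The difference was 0.31 (SE 0.15, 95% interval -0.06 to 0.69, limma adjusted p 0.838), but 0.18 without WT replicate 2 and 0.10 within slide row 1. Its dimmer probe gave -0.65, -1.32 and -0.95 in WT and -0.85, -0.46 and -0.92 in FoxO1 +/- wounds, a difference of 0.23 (SE 0.20, limma adjusted p 0.911 over the kept probes). The probes thus disagreed on FoxO1 +/- replicate 3, which was the highest array on one and between the WT arrays on the other. Tryptase genes are close copies of each other, and whether a probe also reads another tryptase was not tested. For Tpsab1, the tryptase gene whose product is lacking in the C57BL/6 strain, no probe could be matched through the reference table, and it was not analysed here.

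Of the receptors, Kit is the growth factor receptor that mast cells share with melanocytes. Its levels were -0.76, -0.85 and -0.55 in WT and -0.39, -0.32 and -0.65 in FoxO1 +/- wounds. Only WT replicate 3 and FoxO1 +/- replicate 3 broke the separation of the genotypes. The difference of 0.27 had the smallest unadjusted p among the members (0.0759 in limma, adjusted p 0.826, SE 0.13, 95% interval -0.04 to 0.57). Kit was printed on the array in duplicate, and the duplicate spots differed by at most 0.07 on any array, less than the range of 0.30 over the WT arrays. Without WT replicate 3 the difference was 0.35, with a limma p of 0.0392 before adjustment, and without FoxO1 +/- replicate 3 it was 0.37, with a limma p of 0.0250 before adjustment. It was 0.20 without WT replicate 2 or without FoxO1 +/- replicate 2, with limma p-values of 0.195 and 0.209 before adjustment.

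Kit is not particular to mast cells, so melanocyte markers are given beside it. Of 8 melanocyte genes 6 were measured, and 4 of them had lower and 2 higher means in FoxO1 +/- wounds, with a median of -0.88. Pmel differed by -0.96 (SE 0.32, limma adjusted p 0.732) and Tyrp1, a melanin enzyme gene, by -1.06 (SE 0.41, limma adjusted p 0.798). Dct and Mlana were lower as well (-1.01 and -0.81), whereas Tyr and Sox10 differed by 0.06 each, the same sign as Kit. On WT replicate 2, however, Tyrp1 (-2.21), Dct (-0.13) and Mlana (-0.42) lay within the range of the FoxO1 +/- arrays. Pmel, at -2.01 on that array, lay just above its FoxO1 +/- range of -2.57 to -2.04. The summed signal of the 6 genes, on the log2 scale, ran from 1.58 to 2.93 in WT and from 1.32 to 1.92 in FoxO1 +/- wounds. The part of melanocytes in the Kit values was not tested.

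Fcer1a, the IgE-binding chain, measured -0.99, -1.75 and -1.45 in WT and -1.75, -1.06 and -1.41 in FoxO1 +/- wounds. WT replicate 2 and FoxO1 +/- replicate 1 were lowest, equal to 2 decimals, and the genotypes spanned almost the same range. The difference was -0.01 (SE 0.25, 95% interval -0.62 to 0.60, limma adjusted p 0.999), but leaving out WT replicate 1 gave 0.20, leaving out FoxO1 +/- replicate 1 gave 0.17, and slide row 1 alone gave -0.35. Ms4a2, the beta chain of the same receptor, was not well above background on any of the 6 arrays and was therefore not tested. The gamma chain gene Fcer1g, which macrophages and neutrophils also express, differed by 0.19 (SE 0.09, limma adjusted p 0.826).

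Hdc encodes histidine decarboxylase, which makes histamine in mast cells, basophils and other myeloid cells. Its levels were 4.82, 6.71 and 5.79 in WT and 5.80, 5.52 and 5.87 in FoxO1 +/- wounds. The WT arrays thus spanned 3.70-fold, with replicate 1 lowest and replicate 2 highest, while the FoxO1 +/- arrays lay within 1.27-fold of each other between them. Mcpt4, Cma1, Cpa3 and Tpsb2 were instead lowest on WT replicate 2. The genotype difference was -0.04 (SE 0.45, 95% interval -1.15 to 1.06, limma adjusted p 0.998), and it became -0.52 without WT replicate 1 and 0.43 without WT replicate 2.

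Mcpt8, whose product marks basophils, was dim. It measured -3.44, -3.0 and -2.20 in WT and -3.54, -2.36 and -4.92 in FoxO1 +/- wounds, and on FoxO1 +/- replicate 3 it was not well above background. The difference of -0.73 (SE 0.67, 95% interval -2.36 to 0.91, limma adjusted p 0.938) was -0.07 without that array and -1.35 without FoxO1 +/- replicate 2. Of the other basophil markers, Prss34 differed by 0.09, Il4 by 0.20 and Itga2 by 0.03, while Cd200r3 differed by -0.22. The summed signal of 5 basophil markers, Mcpt8 among them, ran from -0.43 to -0.24 in WT and from -0.67 to 0.03 in FoxO1 +/- wounds on the log2 scale.

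**Figure D2:**
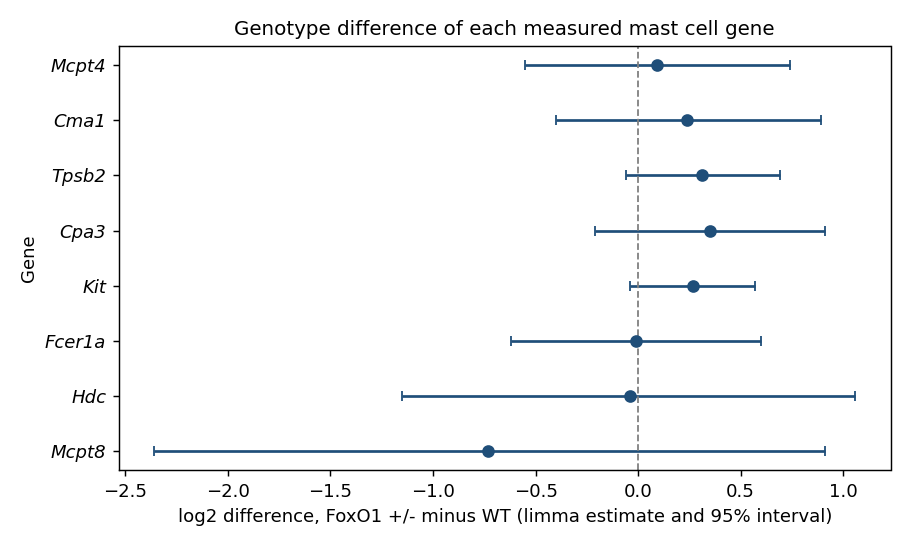
Log2 difference between FoxO1 +/- and WT wounds (horizontal axis) for the 8 measured mast cell genes, as limma estimates with 95% intervals from 3 arrays per genotype. Every interval includes 0, from the narrowest for Kit (-0.04 to 0.57) to the widest for Mcpt8 (-2.36 to 0.91).

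Arrays of 1 genotype differed among themselves in the members. The range over the WT arrays was larger than the genotype difference for all 8 measured members, as it was for 85.2% of all genes. Over all 6 arrays the range was 0.83 for Mcpt4, 1.05 for Cma1 and 1.08 for Cpa3, beside a median range of 0.38 over all genes. Hdc spanned 1.89, wider than 97.7% of all genes, and Kit, at 0.53, was the most even member. Mcpt8 has no exact range, since its lowest value was not well above background. WT replicate 2 was the lowest WT array for 6 of 8 members, beside 33.8% of all genes, and FoxO1 +/- replicate 3 the lowest FoxO1 +/- array for 5 of 8, beside 34.0%. FoxO1 +/- replicate 2 was the highest of its genotype for 6 of 8, beside 33.7% of all genes. In Mcpt4, Cma1 and Cpa3, 3 of 8 members, WT replicate 2 and FoxO1 +/- replicate 3 lay below all 4 other arrays, a pattern noticed in these values and found in 10.1% of all genes.

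**Figure D3:**
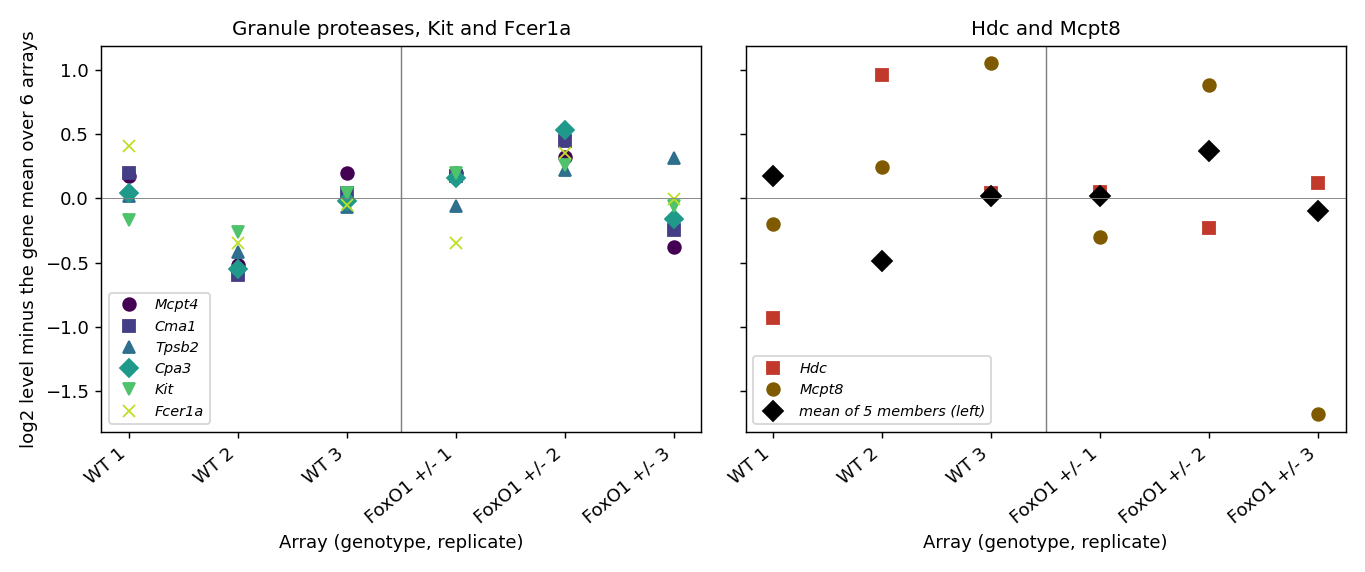
Log2 level minus the gene's own mean over 6 arrays (vertical axis) by array. On the left, Mcpt4, Cma1, Tpsb2, Cpa3, Kit and Fcer1a are all below their means on WT replicate 2 and above them on FoxO1 +/- replicate 2. On the right, Hdc is highest on WT replicate 2 (level 6.71) and Mcpt8 lowest on FoxO1 +/- replicate 3 (level -4.92). Diamonds are the mean of 5 genes, Mcpt4, Cma1, Tpsb2, Cpa3 and Fcer1a.

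Other mast cell genes were taken from 3 lists of granule and mediator genes, receptors and ligands, and signalling genes and transcription factors. Of 60 listed genes 52 were measured, of which 33 had higher and 19 lower means in FoxO1 +/- wounds, beside 53.7% higher over all genes, and 0 passed an unadjusted or adjusted p of 0.05 in limma, beside 6.25% and 0.00609%. The genotypes did not overlap for 3 of the 52, Il3ra, Plcg1 and Tal1, beside 11.5% of all genes. The gaps were narrow. For Il3ra the highest WT array was at 3.26 and the lowest FoxO1 +/- array at 3.27. For Plcg1 the lowest WT array was at -2.45 and the highest FoxO1 +/- array at -2.48. For Tal1 WT replicate 3 and FoxO1 +/- replicate 1 were both at -1.45 when rounded.

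In the granule and mediator list, 13 of 16 genes were measured, 9 with higher and 4 with lower means and a median of 0.08, and Mcpt1, Mcpt2 and Mcpt9 were not kept as too dim. The smallest p-values were those of Cd63, a granule membrane protein gene (0.17, SE 0.10), Slc18a2, which loads histamine into granules (0.23, SE 0.14), Ptgs1, a prostaglandin synthase gene (-0.16, SE 0.12), and Ltc4s, the leukotriene C4 synthase gene (-0.30, SE 0.27), with limma adjusted p-values from 0.870 to 0.937. Slc18a2 was lowest on WT replicate 2, at -2.37 beside -2.04 to -1.79 on the other arrays. Srgn, which encodes the proteoglycan core of mast cell and other leukocyte granules, instead measured 6.34, 7.66 and 6.90 in WT and 7.01, 6.80 and 7.35 in FoxO1 +/- wounds, lowest on WT replicate 1 and highest on WT replicate 2 as Hdc was.

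In the receptor and ligand list, 18 of 23 genes were measured, 10 with higher and 8 with lower means and a median of 0.03. Besides Fcer1g, the smallest p-values were those of Cd200r1, an inhibitory receptor gene (0.18, SE 0.10), Tslp, an epithelial cytokine gene (-0.47, SE 0.26), and Il3ra, the alpha chain gene of the interleukin-3 receptor (0.20, SE 0.11), with limma adjusted p-values from 0.826 to 0.867. Tslp was at -0.56 and -0.73 on WT replicates 1 and 3 but at -1.53 on WT replicate 2, within the FoxO1 +/- range of -1.62 to -1.30. Without WT replicate 2 its difference was -0.76, with a limma adjusted p of 0.173, and without WT replicate 1 it was -0.28, with a limma adjusted p of 0.951. Kitl, which encodes stem cell factor, the ligand of Kit, differed by 0.02 (SE 0.12), and Il33, whose product activates mast cells through Il1rl1, by -0.06 (SE 0.17).

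In the signalling and factor list all 21 genes were measured, 14 with higher and 7 with lower means and a median of 0.05. Plcg1, a phospholipase gene (-0.17, SE 0.09), Lcp2, an adaptor gene (0.20, SE 0.11), Tal1, a blood cell transcription factor gene (0.17, SE 0.10), and Stat5a, which acts downstream of cytokine receptors and Kit (0.14, SE 0.08), had the smallest p-values, with limma adjusted p-values from 0.845 to 0.873. The value of Plcg1 was -0.06 as the mean of its kept probes and -0.04 with normexp background correction. Gata2 and Gata1, the GATA factors of mast cells, differed by 0.08 (SE 0.15) and 0.12 (SE 0.39), and the kinase genes Lyn and Syk by 0.04 (SE 0.16) and 0.02 (SE 0.17). Many of these genes are active in other leukocytes of the wound as well.

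Of the 52 listed genes measured, 7 had WT replicate 2 and FoxO1 +/- replicate 3 as their lowest arrays, close to the 10.1% of all genes that did. Among them, and chosen after their values were seen, Cma2, a further chymase gene, measured 2.41, 1.86 and 2.51 in WT and 2.43, 2.61 and 1.95 in FoxO1 +/- wounds. Mrgprb2, the receptor through which mouse mast cells respond to basic peptides, measured -2.86, -4.00 and -2.88 in WT and -2.93, -2.84 and -3.28 in FoxO1 +/- wounds. The others were Mrgprb1, Ctsg, Tpsg1, Gata2 and Stat5b, the last by little (2.35 on WT replicate 2 beside 2.36 on WT replicate 1).

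Genes with the most similar course over the arrays were found by the root mean square difference between their centred log2 levels and the mean of Mcpt4, Cma1, Tpsb2, Cpa3 and Fcer1a. That mean was 0.17, -0.49 and 0.02 in WT and 0.02, 0.37 and -0.10 in FoxO1 +/- wounds, with an SD of 0.29 over the 6 arrays. Among 7042 genes that varied enough and were well above background on all 6 arrays, the 8 nearest were Zfp454 (0.04), Gpc3 (0.05), Akr1c14 (0.05), Sncaip (0.07), Enpp2 (0.07), Mfap2 (0.08), Podn (0.08) and Nrep (0.09). As these were picked as the nearest of 7042 genes, their lying nearer to the mean than any member is no result about the members. Of the members that make up the mean, Cma1 (0.10) and Cpa3 (0.11) lay nearest, then Mcpt4 (0.16), Tpsb2 (0.19) and Fcer1a (0.20). Of the members outside it, Kit lay at 0.19, Hdc at 0.79 and Mcpt8 at 0.87. Genes in the mean are partly compared with themselves. Hdc and Mcpt8 also varied more over the arrays (SD 0.61 and 0.99), which adds to their distance. These distances therefore do not rank the members. With 6 arrays that share tissue and slide, such likeness is a description of these arrays.

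Markers of other cell types varied over the same arrays. Skeletal muscle genes, from the thin muscle under mouse skin, had a mean level of 4.70, 3.88 and 5.38 in WT and 5.27, 5.03 and 3.94 in FoxO1 +/- wounds. In 7 of 8 of them WT replicate 2 and FoxO1 +/- replicate 3 were the lowest arrays, the same pair as for Mcpt4, Cma1 and Cpa3. Adipocyte genes were also lowest on WT replicate 2, with a mean of 3.42, 2.38 and 3.12 in WT. They were highest on FoxO1 +/- replicate 3, with 3.63, 3.80 and 4.08 in FoxO1 +/- wounds. All 10 had higher means in FoxO1 +/- wounds, beside 53.7% of all genes. Adipoq, the adiponectin gene, ranged from 2.96 on WT replicate 2 to 4.78 on FoxO1 +/- replicate 3. The part of muscle and fat content in the mast cell values was not tested.

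For Hdc, the neutrophil markers are given because neutrophils express histidine decarboxylase as well. Their mean level over 9 genes was 1.51, 2.54 and 2.01 in WT and 2.19, 2.22 and 2.57 in FoxO1 +/- wounds, lowest on WT replicate 1 as Hdc was. Of the 9 genes 7 were lowest on WT replicate 1, but only 3 were highest on WT replicate 2, where Hdc was. Among these, Cxcr2, a chemokine receptor gene of neutrophils chosen after its values were seen, measured 1.75, 3.36 and 2.70 in WT and 2.50, 2.19 and 2.57 in FoxO1 +/- wounds, whereas Ltf, the lactoferrin gene, was highest on FoxO1 +/- replicate 3, at -0.35. Of 9 monocyte and macrophage genes 1, Cd14, was highest on WT replicate 2, and 3 were lowest there. The part of neutrophils and other myeloid cells in the Hdc values was not tested.

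**Figure D4:**
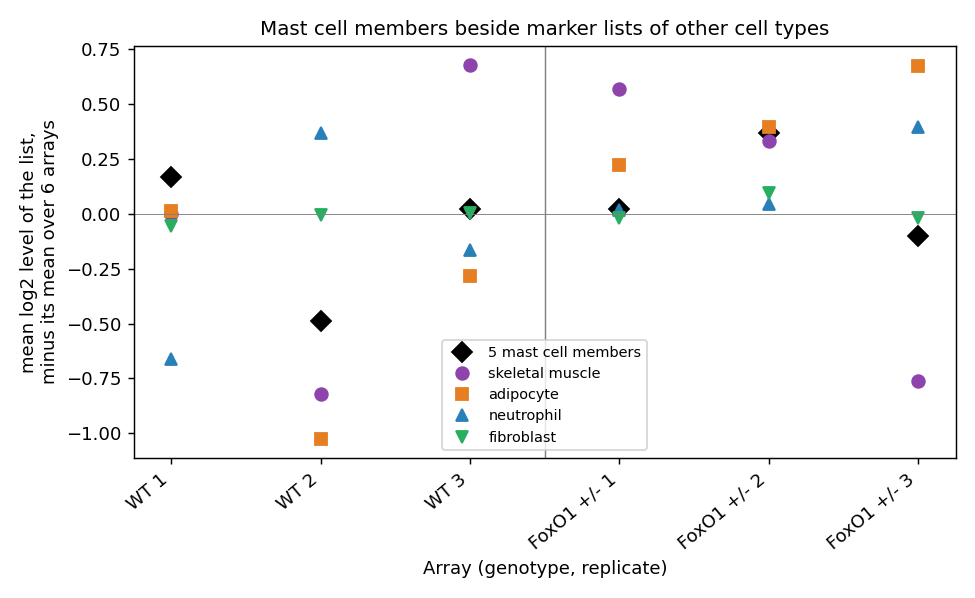
Mean log2 level of marker lists minus the list's own mean over 6 arrays (vertical axis) by array, for 5 mast cell genes (Mcpt4, Cma1, Tpsb2, Cpa3 and Fcer1a), 8 skeletal muscle, 10 adipocyte, 9 neutrophil and 8 fibroblast genes. The mast cell, muscle and adipocyte points are low on WT replicate 2, muscle is low again on FoxO1 +/- replicate 3, where adipocyte genes are high, and fibroblast genes stay near 0.

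The summed signals of the marker lists, on the log2 scale, overlapped between genotypes for every list except adipocytes and hair follicle. They ran from 8.06 to 9.41 in WT and 8.11 to 9.33 in FoxO1 +/- wounds for skeletal muscle, from 7.75 to 8.77 and 8.97 to 9.29 for adipocytes, and from 9.09 to 9.59 and 9.21 to 9.61 for neutrophils. For monocytes and macrophages they ran from 8.60 to 8.86 and 8.80 to 8.87, for keratinocytes from 10.10 to 10.40 in WT, inside a FoxO1 +/- range that reached 10.53, and for fibroblasts from 10.07 to 10.14 and 10.13 to 10.27. Hair follicle markers ran from 2.03 to 5.34 in WT, highest on WT replicate 1, and from 1.62 to 1.73 in FoxO1 +/- wounds. All 10 of them had lower means in FoxO1 +/- wounds, whereas 53.7% of all genes had higher means. Only 6 of these 10 were well above background on all 6 arrays. The others were kept through 1 genotype alone, so the filter may have a part in this count, which was not tested. Each sum is led by the brightest genes of its list. In the hair follicle list this was Krt71 on WT replicate 1, at 4.93, beside -3.30 or lower on the other arrays. Slc45a2, Oca2, Ly6g and Cd68 of the marker lists were not measured.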

How the data were processed

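RNA of 6 day 3 wound samples, 3 WT and 3 FoxO1 +/-, was labelled with Cy3 from 200 ng of total RNA and hybridised to 1-colour Agilent arrays on 1 slide. The deposited intensity values are linear processed signals, background-subtracted and detrended by Agilent Feature Extraction 10.7.1.1, per the file headers, whereas the submitters' processing notes name version 9.1. Outlier-flagged spots were left out, spots of a probe were averaged as log2 values, and levels were set relative to the 75th percentile of the array's own non-control probes. Accessions were named through a RefSeq table (GRCm38, later than the array's mm9 design): 25869 of 26392 probes with an mRNA accession matched. A probe was kept if all arrays of 1 genotype or of both had it well above background (37898 probes), and the brightest stood for its gene, which left 16408 genes. No spot was saturated.

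FoxO1 +/- minus WT was fitted by two-sided moderated tests of limma 3.58.1 (R 4.3.3), adjusted by Benjamini-Hochberg across the 16408 genes, and the script was tested on simulated data. The 3 arrays per group limit the precision. Named were all 10 members, the 4 genes with the smallest p in each of the 3 lists, the extremes of the marker lists and the 8 nearest genes by root mean square difference, chosen among named genes with an SD over arrays of at least 50% of that of the mean profile. Genes named beyond this were chosen after their values were seen. The members and lists were chosen with earlier results of these data known. Background and outlier flags are those that the deposited files hold. Alternatives covered scaling, quantile normalization, background correction, filters, probe choice, the authors' value table, slide row, the replicate block and leaving out each array.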

Additional observations from a re-analysis of the deposited data

How the results depend on the processing

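No member passed an adjusted p of 0.05 in limma under any of the 16 alternatives. The count of members at an unadjusted p of 0.05 was 0 in all alternatives except 3 that left out an array (range 0 to 1): Kit without WT replicate 3 or FoxO1 +/- replicate 3, and Tpsb2 without FoxO1 +/- replicate 1. The members' median difference ran from 0.07 to 0.27 when arrays were left out and from 0.12 to 0.24 otherwise. Signs turned for Hdc, at 0.03 with slide row as a block and within slide row 1, and with arrays left out for Hdc (-0.52 to 0.43), Mcpt4 (-0.14 to 0.31) and Fcer1a (-0.18 to 0.20). Slide row 2 held no WT array, so the row settings set FoxO1 +/- replicate 1 against the WT arrays. Within row 1 this lone array is taken to spread as the WT arrays do. With the block, the FoxO1 +/- arrays of row 2 also enter the spread. With the block Fcer1a differed by -0.35, Mcpt4 by 0.25 and Tpsb2 by 0.10. Normexp, run on the median spot signal because the files hold no mean signal, put Mcpt8 at -0.21. With the filter on all 6 arrays Mcpt8 had no value.

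Over all genes, the count past an adjusted p of 0.05 in limma was 1, and it became 0 with the percentile over probes well above background on all arrays, with normexp and with the filter on all 6 arrays, 2 with quantile normalization, 3 with no filter, 7 with slide row as a block, 4 within slide row 1, and 0 to 28 with arrays left out (28 without WT replicate 2). The granule list's median of 0.08 became 4.4e-04 with quantile normalization, 0.12 with slide row as a block and within row 1, and 0.01 to 0.10 with arrays left out. Its count at an unadjusted p of 0.05 was 0, and 0 to 2 with arrays left out. The receptor list's count was 1 with normexp, slide row as a block and within row 1, and 0 to 2 with arrays left out. The signalling list's count was 1 with normexp and 0 to 1 with arrays left out, and its median of 0.05 ran from -3.5e-03, without FoxO1 +/- replicate 1, to 0.08. The causes were not tested.

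The titles do not say whether animals of the same number were paired. Deviations from the genotype means correlated at -0.07, -0.14 and -0.30 between arrays of the same number, and no array correlated best with its own number. With 3 arrays per genotype, whose deviations sum to 0, such correlations cannot decide whether the animals were paired. With the replicate block 0 genes passed an adjusted p of 0.05, 0 members and 1 receptor list gene, Tslp, passed an unadjusted p of 0.05. The differences themselves cannot change under this block, which holds 1 array of each genotype per number.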
